A study of Mus musculus with 28 samples.

Results

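The regions described here are 318 of the 63313 H3K27ac peaks of mouse bone marrow-derived macrophages that carried much less of the mark after interleukin 4 (IL4) and about as much after either glucocorticoid. H3K27ac, acetylation of histone H3 at lysine 27, marks active enhancers and promoters and was measured by chromatin immunoprecipitation and sequencing (ChIP-seq). Counts were scaled to CPM, counts per 1e6 counts in peaks of the same library. A region was taken when its vehicle mean was at least 4 CPM and its ratio to vehicle, with 0.5 CPM added to both means, was at most 0.4 with IL4 and lay between 0.77 and 1.3 with each steroid. The regions were thus chosen by their H3K27ac values, and the differences between treatments are given as a description without a test. Of all peaks, 30980 reached the vehicle level and 1730 of those lay at 0.4 or less with IL4 whatever the steroids did.

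Male C57BL/6 mice, 8 to 10 weeks old, gave the marrow, from which macrophages were grown for 5 days in medium conditioned by L cells. The groups were vehicle, 500 nM corticosterone (Cort, the main glucocorticoid of mice), 100 nM dexamethasone (Dex, a synthetic one) and 10 ng/ml IL4, each given for 24 h, although the titles of the vehicle H3K27ac libraries name no time. H3K27ac had 3 libraries per group. ChIP-seq of the glucocorticoid receptor (GR) had 3 IL4 libraries and 4 in every other group, in 2 batches, with all IL4 libraries in batch 2. Nothing in the labels says that the libraries came from separate animals, so spreads and p-values cover the variation between libraries, which may be technical. The cells are a bulk culture, so fewer cells carrying the mark and less of the mark per cell cannot be told apart.

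IL4 binds its receptor on macrophages and activates the transcription factor STAT6, which switches on genes of alternative activation such as Arg1 and Mrc1. STAT6 is also known for a repressive role at macrophage enhancers, many of them bound by the myeloid factor PU.1. Acetylation at lysine 27 is written by the coactivators p300 and CBP and removed by histone deacetylases, so its level follows the balance of both at an element. GR is a nuclear receptor that enters the nucleus when a glucocorticoid binds it and attaches to DNA directly or through other factors such as AP-1 and NF-kB.

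Promoters of 5 genes lie inside regions that the results below turn on, and their sequences are shown because the mark covers them. They are RefSeq windows of 250 bases before to 50 after the start site (GRCm38.p6, the same assembly as mm10), written 5′ to 3′ on the gene's strand. Capitals mark a match to the STAT motif TTCNNNNGAA or TTCNNNGAA, or to the NF-kB motif GGGANNNNCC, on either strand.
Fpr1 (minus strand, chr17:17883890-17884189): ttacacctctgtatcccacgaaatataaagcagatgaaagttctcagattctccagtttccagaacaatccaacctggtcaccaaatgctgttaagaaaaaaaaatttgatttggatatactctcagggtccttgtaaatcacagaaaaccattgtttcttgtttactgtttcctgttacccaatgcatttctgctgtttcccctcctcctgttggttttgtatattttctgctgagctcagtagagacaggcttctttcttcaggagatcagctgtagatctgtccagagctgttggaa
Fpr2 (plus strand, chr17:17887574-17887873): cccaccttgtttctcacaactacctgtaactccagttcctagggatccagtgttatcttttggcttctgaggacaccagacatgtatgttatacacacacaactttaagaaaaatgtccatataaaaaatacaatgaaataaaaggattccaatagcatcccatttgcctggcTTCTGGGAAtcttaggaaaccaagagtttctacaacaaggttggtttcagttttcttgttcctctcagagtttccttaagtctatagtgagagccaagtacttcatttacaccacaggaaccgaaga
Cx3cr1 (minus strand, chr9:120068247-120068546): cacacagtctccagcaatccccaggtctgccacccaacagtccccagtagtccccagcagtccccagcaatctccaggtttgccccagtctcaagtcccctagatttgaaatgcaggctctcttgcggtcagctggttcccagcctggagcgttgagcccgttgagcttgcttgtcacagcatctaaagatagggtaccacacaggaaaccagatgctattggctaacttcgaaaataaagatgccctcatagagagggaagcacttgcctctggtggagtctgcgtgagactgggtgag
Siglece (minus strand, chr7:43660112-43660411): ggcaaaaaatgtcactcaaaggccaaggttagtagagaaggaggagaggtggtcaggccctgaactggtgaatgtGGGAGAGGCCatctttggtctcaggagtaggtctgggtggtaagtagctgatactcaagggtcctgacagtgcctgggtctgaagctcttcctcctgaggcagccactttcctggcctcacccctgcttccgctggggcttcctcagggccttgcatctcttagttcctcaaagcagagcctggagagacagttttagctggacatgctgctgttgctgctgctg
Tlr2 (minus strand, chr3:83841559-83841858): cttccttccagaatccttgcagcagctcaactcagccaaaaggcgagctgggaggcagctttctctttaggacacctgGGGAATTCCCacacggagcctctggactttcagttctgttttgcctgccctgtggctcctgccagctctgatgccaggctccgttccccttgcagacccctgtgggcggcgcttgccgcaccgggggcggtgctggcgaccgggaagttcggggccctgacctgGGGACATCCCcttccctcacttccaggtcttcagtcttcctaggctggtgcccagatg
The Fpr2 window held a STAT match that starts 77 bases before the start site. In Siglece an NF-kB match starts 175 bases before it, and in Tlr2 such matches start 172 and 8 bases before it. Neither the Fpr1 nor the Cx3cr1 window held a match to any motif searched. Over the 33 RefSeq promoter windows inside the regions, which belong to 26 named genes and often overlap, NF-kB matches were in 24.2% against 20.7% of all 32851 windows. STAT matches were in 6.06% for either spacing, against 6.95% (TTCNNNNGAA) and 8.30% (TTCNNNGAA). The PU.1 motif GAGGAAGT was in 9.09% of these windows and 3.20% of all, which amounts to 3 windows. AP-1 (TGANTCA) was in 9.09% against 7.81%, C/EBP (TTGCNNAA) in 12.1% against 10.8%, IRF (GAAANNGAAA) in 6.06% against 3.44% and the EGR motif GCGTGGGCG in 0 against 0.612%. The glucocorticoid response element GNACANNNTGTNC was in 3.03% against 0.475%, which amounts to 1 window. STAT and NF-kB matches on both strands were counted once per window, and these shares are a description of letters, not of binding.

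The libraries held 6829787 to 15695771 counts in peaks for H3K27ac and 900063 to 1981582 for GR. Of 8 macrophage marker genes 7 had a peak, with a median of 203 CPM in vehicle at each gene's highest peak, against 2.57 to 30.4 CPM for 7 lists of other cell types. No region had a gene of these marker lists as its nearest gene within 50 kb. The summed macrophage markers ran from 3015 to 3233 CPM in vehicle and 2551 to 2765 CPM with IL4. Neutrophil markers (6 of 10 genes with a peak) ran from 162 to 171 and 235 to 267 CPM, and erythroid or megakaryocyte markers (3 of 9 with a peak) from 82.4 to 98.2 and 51.6 to 61.9 CPM. Osteoclast markers (8 of 9 with a peak) ran from 679 to 812 and 880.5 to 947 CPM, fibroblast markers (1 of 8 with a peak) from 56.9 to 59.3 and 69.7 to 84.8, and lymphoid markers (5 of 10 with a peak) from 259 to 284 and 216 to 251. The dendritic and the mast or basophil ranges overlapped between vehicle and IL4. The part of other cells in the results below was not tested.

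Summed over the 318 regions, vehicle libraries held 9166, 10716 and 9212 CPM and IL4 libraries 3035, 3366 and 2648 CPM. The Cort libraries held 8783, 11098 and 7829 CPM, and the Dex libraries 8651, 10687 and 8057 CPM. All IL4 sums were thus far below the 9 others, whereas the steroid sums overlapped the vehicle sums. Libraries numbered 2 had the highest sum in every group. The median ratio to vehicle was 0.348 with IL4 (0.142 to 0.4), 0.939 with Cort and 0.919 with Dex. The median vehicle level of a region was 19.6 CPM, with a range of 4.08 to 379, and 12 regions reached 100 CPM. The Cort mean was below the vehicle mean in 210 regions and the Dex mean in 217. The rule bounded both ratios, so nothing is read from these counts.

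**Figure D1:**
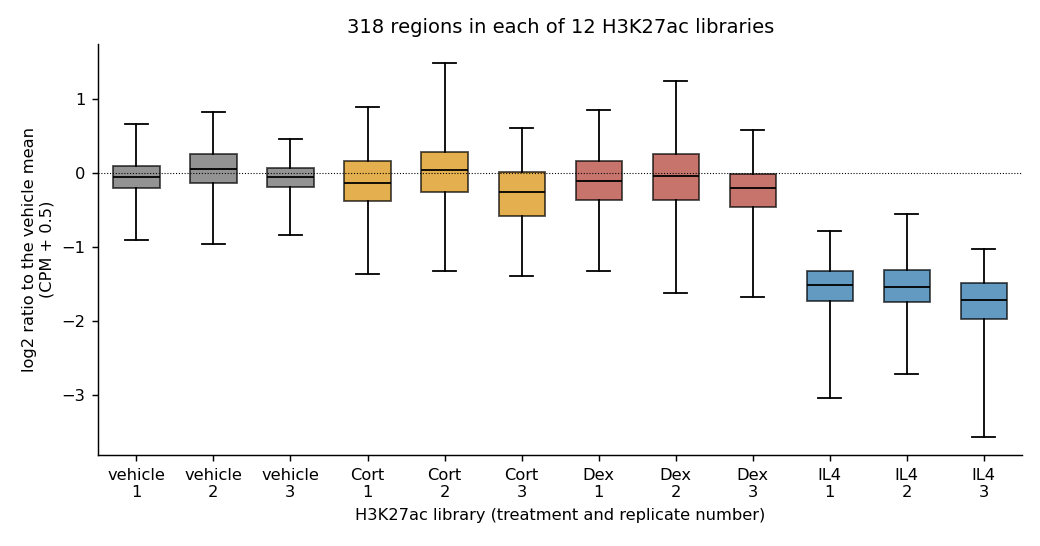
H3K27ac of the 318 regions in each library (x axis) as the log2 ratio of CPM + 0.5 to that of the vehicle mean (y axis). Boxes span the quartiles with the median as a line, and whiskers reach the lowest and highest region. Without the 0.5 CPM that the drawn ratios include, the median ratios of the IL4 libraries were 0.329, 0.325 and 0.282.

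The decrease was graded. A ratio of 0.2 or less was found in 11 regions, over 0.2 to 0.3 in 66, over 0.3 to 0.35 in 86, and over 0.35 in 155. Nuak1 (chr10:84423448-84424650) and Trps1 (chr15:50694948-50700375) lay just inside the limit at 0.3999, with vehicle means of 5.72 and 84.0 CPM. A region in Antxr1 (chr6:87186526-87187575) and one 16.5 kb from Lyn (chr4:3657758-3661540) lay just outside at 0.4001, with 4.46 and 49.8 CPM. The limit therefore cuts through a continuous range.

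**Figure D2:**
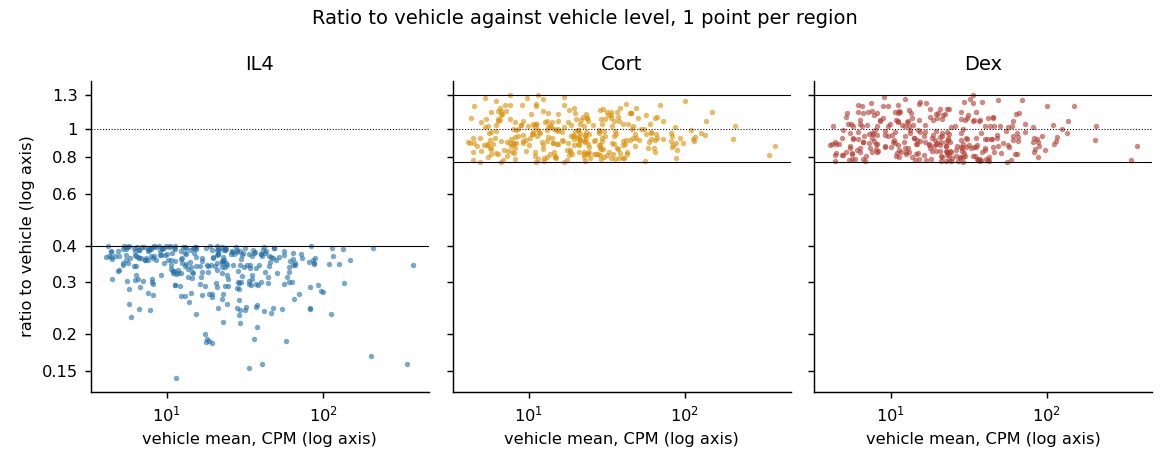
Ratio to vehicle (y axis, log scale, CPM + 0.5) against the vehicle mean in CPM (x axis, log scale) for IL4, Cort and Dex, 1 point per region. Solid lines are the limits of the rule (0.4, and 0.77 to 1.3), the dotted line is 1, and the lowest IL4 ratios, down to 0.142, occur over a wide span of vehicle levels.

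In 317 regions all IL4 libraries were below all vehicle libraries, an arrangement seen in 24.0% of all 59881 tested peaks. The rule favours this arrangement, so nothing is read from the count. The exception was a region in Fggy, a carbohydrate kinase gene (chr4:95782586-95785441), with 19.9, 55.2 and 17.5 CPM in vehicle and 8.09, 20.8 and 5.26 CPM with IL4. There, libraries numbered 2 stood highest in both groups. In edgeR's quasi-likelihood test, 312 of the 318 were called lower with IL4 at an adjusted p under 0.05, where 12.9% of all tested peaks were called lower. The rule used the same contrast, so nothing is read from this share. The 6 without a call were nearest to Rragc, Ascc3, Tcstv3, Cp, Fggy and Coq2, with Tcstv3 more than 50 kb away. No region was called with Cort (1.55% of all peaks) or Dex (5.24%), whose ratios the rule bounded. DESeq2 called 0 with either steroid (3.19% of all peaks with Cort and 6.94% with Dex).

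H3K27ac libraries with the same replicate number varied together, and with the number as a block edgeR called all 318 lower with IL4, where 21.6% of all tested peaks were. It called 1 of the 318 higher with Cort (6.44% of all) and 0 lower (6.13%). With Dex it called 4 higher (9.91% of all) and 6 lower (10.3%). The rule bounded the steroid ratios, so nothing is read from these shares either. The Cort call was a region 9.72 kb from Cx3cr1 (log2 0.37). The higher Dex calls lay in Cd55b (0.36) and near Slc35c1 (0.37). Others lay in intergenic regions with no gene within 50 kb, whose nearest genes are Tex35 (0.41) and Mmadhc (0.29). Lower Dex calls lay at Fpr1 (-0.46), near Txlnb (-0.36 and -0.38), and at Sh3pxd2a (-0.33) and Tmem176b (-0.34). A further lower call (-0.34) was in a region with no gene within 50 kb, whose nearest gene is Zswim6. The word "only" thus stands for the limits of the rule, not for an absence of any steroid effect.

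Which regions met the rule depended on single libraries. Leaving out 1 library at a time gave 225 (without Cort replicate 2) to 426 regions (without IL4 replicate 1), which shared 213 to 298 with the 318, and 74 regions met the rule in each of these 12 sets. With effective library sizes from edgeR's trimmed mean of M values (TMM) the rule gave 287 regions, of which 251 were shared.

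Receptors that sense bacteria held some of the largest amounts of the mark among the regions. Fpr1 and Fpr2 encode formyl peptide receptors, which detect peptides released by bacteria and damaged mitochondria. Their shared region (chr17:17875521-17894166, over both promoters) had 303, 428 and 305 CPM in vehicle, 216, 477 and 149.7 with Cort, 189, 461 and 161 with Dex, and 54.5, 75 and 34.5 with IL4. The IL4 libraries were far below all others, while the steroid libraries overlapped vehicle and spread widely. Its ratio was 0.159 and its log2 difference -2.62 ± 0.49 (standard error from edgeR, as for all log2 values of H3K27ac). An adjacent region 1.03 kb from Fpr1 (chr17:17864038-17875444) had 189, 250.3 and 171 CPM in vehicle and 34.5, 49.2 and 17.9 with IL4, a ratio of 0.168. One more, 0.552 kb from Fpr2 (chr17:17894504-17897086), had 17.6, 21.4 and 15.4 CPM and 4.68, 3.52 and 1.07, a ratio of 0.192. With another in Spaca6 they formed a run of 4 regions over 71.0 kb whose summed vehicle level of 596 CPM stood against 99.8 CPM with IL4.

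Tlr2, the Toll-like receptor for bacterial lipoproteins, had a region over its promoter (chr3:83838905-83846034) with 132, 128 and 147 CPM in vehicle and 35, 46.1 and 38.8 with IL4. The groups were well apart, with a ratio of 0.298 (log2 -1.71 ± 0.22), and Cort and Dex both stood at a ratio of 1.06. A second region, 19.4 kb from Tlr2 (chr3:83861191-83865836), went from 60.0, 60.3 and 61.0 to 18.3, 22.4 and 17.2 CPM. Cd14, the coreceptor for lipopolysaccharide, had 2 regions, the stronger (chr18:36722412-36728491) with 119, 114 and 114 CPM in vehicle and 32.9, 50.5 and 44.2 with IL4. A region in Irak3 (chr10:120182871-120186145), whose product restrains Toll-like receptor signalling, had 20.7, 15.2 and 17.0 CPM against 5.56, 5.55 and 3.26. Both a sensor and a brake of the same pathway were thus among the regions.

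Among all 169 peaks nearest to 26 genes of pattern recognition receptors and adaptors, 44 were called lower (26.0%) and 18 higher (10.7%) with IL4 (edgeR). Over all tested peaks 12.9% were called lower and 14.7% higher, the background for each gene list below. The median log2 difference was -0.40 in this list against -0.02 over all tested peaks. The 8 regions near Fpr1, Fpr2, Irak3, Tlr2 and Cd14 are part of that count.

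The fractalkine receptor gene Cx3cr1, a marker of monocytes and tissue macrophages, had 6 regions within 34.0 kb (chr9:120036026-120070063). They were all of its 6 peaks of at least 4 CPM in vehicle. At its promoter (chr9:120067699-120070063) vehicle libraries had 27.9, 10.9 and 19.9 CPM and IL4 libraries 4.05, 3.52 and 2.20. The region 9.72 kb from the gene (chr9:120036026-120038964) had 54.8, 30.6 and 40.3 CPM in vehicle and 11, 6.95 and 11.1 with IL4. In both, vehicle replicate 2 was the lowest of its group, the opposite of the order at Fpr1, and it still lay above every IL4 library. Ratios over the 6 regions ran from 0.187 to 0.367, and their sum was 131 CPM in vehicle and 33.3 with IL4. All 6 regions of the list of 23 chemokine and chemokine receptor genes were at Cx3cr1. Over the list's 95 peaks 9 were called lower (9.47%) and 15 higher (15.8%).

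Spn, which encodes the sialomucin CD43, had the lowest of all (chr7:127122590-127124279), with 9.53, 12.5 and 12.4 CPM in vehicle and 1.14, 1.33 and 1.13 with IL4, a ratio of 0.142 (log2 -3.21 ± 0.36). Its Cort ratio of 1.3 lay at the upper limit of the rule, with libraries at 8.93, 22.1 and 14 CPM. Inside Cd55b, a paralog of the complement inhibitor Cd55, a region (chr1:130415802-130419129) had 20.4, 50.0 and 31.0 CPM in vehicle and 3.67, 8.12 and 2.46 with IL4. Here too libraries numbered 2 were highest in each group, and the ratio was 0.153. Cd55b and Cd55 are adjacent and alike in sequence, so reads may be shared between them. Together they held 5 regions over 77.9 kb, with a summed 253 CPM in vehicle and 62.7 with IL4.

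Icosl, the ligand of the T-cell costimulator ICOS, lay 14.4 kb from a region (chr10:78093974-78097446) with 39.5, 47.1 and 35.8 CPM in vehicle and 5.56, 8.36 and 4.13 with IL4, a ratio of 0.158. Siglece, an inhibitory lectin that binds sialic acid, had a region over its promoter (chr7:43658309-43665903) with 101, 126 and 108 CPM against 24.4, 28.8 and 23.9. Both sets of libraries were tight and far apart, with a ratio of 0.234 (log2 -2.08 ± 0.29). The shared promoter of Tmem176a and Tmem176b, membrane protein genes known from dendritic cells (chr6:48838532-48842399), had 29.7, 49.8 and 28.8 CPM against 4.80, 8.67 and 6.13. Other promoters inside the regions included those of the succinate receptor gene Sucnr1 (ratio 0.328), the adhesion receptor gene Adgre4 (0.365), Gpr18 (0.396) and the interferon-inducible GTPase gene Ifi47 (0.387).

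Adhesion and the cytoskeleton were represented by Msn, Itga9, Itgal and Emilin2. Moesin, encoded by Msn, links the membrane to actin, and a region in it (chrX:96152435-96156188) had 14.2, 18.9 and 22.6 CPM in vehicle and 3.16, 3.67 and 2.53 with IL4. In Itga9, the integrin alpha 9 gene, 3 regions had ratios of 0.220, 0.356 and 0.376, and the lowest (chr9:118610182-118612396) went from 20.9, 25.5 and 22.2 to 5.56, 3.67 and 4.66 CPM. Itgal encodes the alpha subunit of LFA-1, and its region (chr7:127295404-127298176) had 33.7, 43.1 and 37.1 CPM against 10.9, 6.80 and 9.93. The region in Emilin2, a matrix protein gene (chr17:71293414-71296941), had 38.9, 77.1 and 48.0 CPM against 14.3, 13.5 and 10.9. No library of these 4 regions overlapped between vehicle and IL4. Over the whole list of 26 adhesion genes, 42 of 342 peaks were called lower (12.3%) and 61 higher (17.8%). These shares were near those of all tested peaks (12.9% and 14.7%), so its 5 regions sat in a list without a common direction.

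The highest vehicle level of all belonged to a region over the promoters of Serp1, an endoplasmic reticulum stress protein gene, and Eif2a, a translation initiation factor gene (chr3:58513896-58527043). It had 316, 461 and 359 CPM in vehicle, 267, 442 and 280.2 with Cort, 275, 434 and 287 with Dex, and 118, 161 and 111 with IL4. Beside it, 3 weaker regions had ratios of 0.295, 0.379 and 0.395. Together these were all 4 peaks of at least 4 CPM in vehicle assigned to Serp1. A region 2.32 kb from Lyz1, which encodes a lysozyme that cleaves bacterial cell walls (chr10:117295192-117305493), had 206, 213 and 207 CPM in vehicle and 83.4, 83.6 and 77.9 with IL4. The libraries of each group were close to each other there, and its ratio of 0.393 is one of the most precise of the set (log2 -1.31 ± 0.14). Lyz1 has a close paralog, Lyz2, so reads in it may be shared. Lyn, a Src family kinase gene, had a region (chr4:3708507-3716858) with 83.7, 153 and 106 CPM against 40.5, 53.0 and 40.4.

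Regions with high vehicle levels also lay in Limd2, whose promoter was covered (chr11:106152459-106161749, 118, 161 and 125 CPM in vehicle, 42.3, 65.0 and 49.2 with IL4), and in Ptbp3, an RNA-binding protein gene (chr4:59463491-59478439, ratio 0.347). In Alk, a receptor tyrosine kinase gene, an intragenic region (chr17:72178150-72183729) had 52.3, 75.7 and 44.9 CPM against 12.5, 9.92 and 9.26, a ratio of 0.190. An intergenic region with no gene within 50 kb, 388 kb from Mmadhc (chr2:50686586-50691929), had 145, 159.6 and 141 CPM against 43.9, 72.3 and 43.3. Another, 88.1 kb from Aebp2 (chr6:140766557-140768653), had 16.5, 19.4 and 17.5 CPM against 3.92, 2.89 and 2.00. High vehicle levels and low ratios were thus found far from genes as well. Mecr, a mitochondrial fatty acid synthesis enzyme gene, held 4 regions within 12.6 kb at ratios of 0.228 to 0.327. It had 5 peaks of at least 4 CPM in vehicle.

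**Figure D3:**
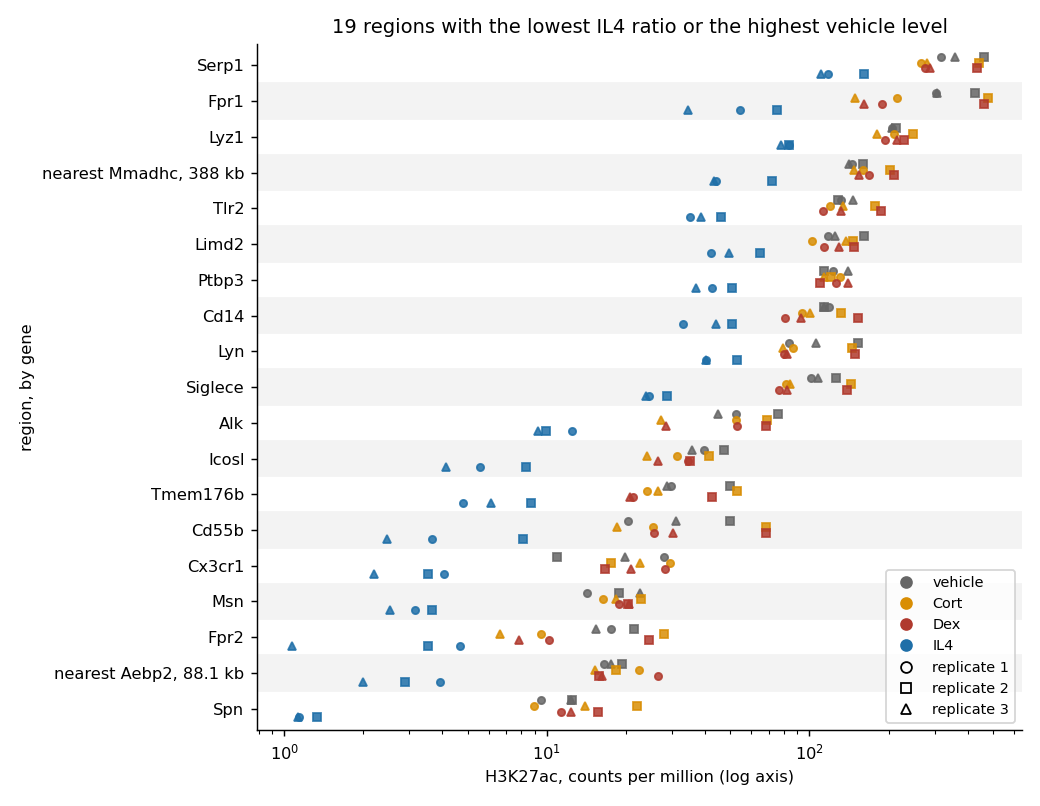
H3K27ac in CPM (x axis, log scale) of the 19 regions with the lowest IL4 ratios or the highest vehicle levels (y axis, by gene), 1 marker per library, colour for treatment and shape for replicate number. IL4 markers lie left of all vehicle markers in each row, as in the Spn region with at most 1.33 CPM against at least 9.53.

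Regions also lay near genes of transcription factors. The region 4.09 kb from Egr1, an immediate early gene (chr18:34854633-34857119), had 33.6, 37.3 and 24.5 CPM in vehicle and 8.98, 6.33 and 6.59 with IL4. Nfkb1, which encodes the p50 subunit of NF-kB (chr3:135616243-135617684), had 13.6, 7.11 and 9.94 CPM against 2.65, 3.52 and 3.8. Nr4a1, a nuclear receptor of the orphan class (0.390), and Irf8, a myeloid lineage factor (0.396), were nearer the limit. Over 247 peaks of the AP-1, NF-kB, EGR and ETS genes 31 were called lower and 34 higher, and over 293 peaks of macrophage identity genes 38 and 54, so these few regions do not stand for their lists. Cell cycle genes had 1 region, at the promoter of the cyclin D3 gene Ccnd3 (ratio 0.369), beside 10 lower and 8 higher calls in 103 peaks.

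Mrc1, the mannose receptor gene that IL4 induces, also had a region, 8.14 kb away (chr2:14340161-14341359), with 6.84, 6.47 and 8.22 CPM in vehicle and 2.65, 2.19 and 2.80 with IL4. It was the single region among 180 peaks of the list of IL4- and STAT6-induced genes. Of these peaks 92 were called higher (51.1%) and 6 lower (3.33%), with a median log2 difference of 1.06. Within 50 kb, the glucocorticoid-induced list had the 2 Fpr1 regions, with 27 of its 219 peaks lower (12.3%) and 26 higher (11.9%). No region had any of 23 inflammatory cytokine and inflammasome genes as its nearest gene within 50 kb (12 lower and 8 higher of 107 peaks). The same held within 50 kb for 20 interferon response genes (9 and 4 of 67) and 26 purine and lipid mediator receptor genes (13 and 18 of 113). For lipid metabolism and nuclear receptors 14 of 183 peaks were lower and 39 higher, and for phagocytosis, scavenger, complement and Fc receptors 12 of 168 were lower and 24 higher.

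Joined at gaps of up to 50 kb, the 318 regions made 254 loci. Of these, 210 held a single region and 44 held 2 or more, 108 regions in all. Of 1762 other peaks of at least 4 CPM within 100 kb of a region, 37.6% were called lower and 5.79% higher with IL4, against 17.8% and 13% of all 30662 peaks of that level outside the set. Nearby peaks are not independent of each other, and no test was made. A gene lay within 50 kb of 272 regions (222 genes), and 39 genes had 2 or more. At 26 of the 222 genes another peak of at least 4 CPM in vehicle was called higher with IL4. Peaks below that level were not counted here. Tbxas1, the thromboxane synthase gene, had 13 peaks of at least 4 CPM in vehicle. The region was the 1 called lower (ratio 0.330), and 7 were called higher, up to a log2 difference of 2.31. Ikzf1, which encodes the lymphoid regulator Ikaros, had 16 peaks of that level. Of these, 7 were called lower, the 2 regions at ratios of 0.324 and 0.358 included, and 2 higher, up to 1.59. These genes were chosen after their values were seen.

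Most regions were away from promoters. A RefSeq promoter window of a named gene lay inside 23 of 318 (7.23%), against 23.5% of all peaks of at least 4 CPM and 8.37% of 490 peaks with the mirror pattern, raised at least 2.5 times by IL4 within the same steroid limits. The 1412 other peaks at 0.4 or less with IL4 had 2.55%. Inside a gene lay 168 regions (52.8%), against 69.6%, 63.1% and 53.4% in the same order, so that share was close to the one of other peaks lowered by IL4. The median length was 2103 bp, against 1951 bp in all peaks of that level. The authors' own column named filtered, whose criterion is not given in the sources used here, was TRUE for 297 regions.

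**Figure D4:**
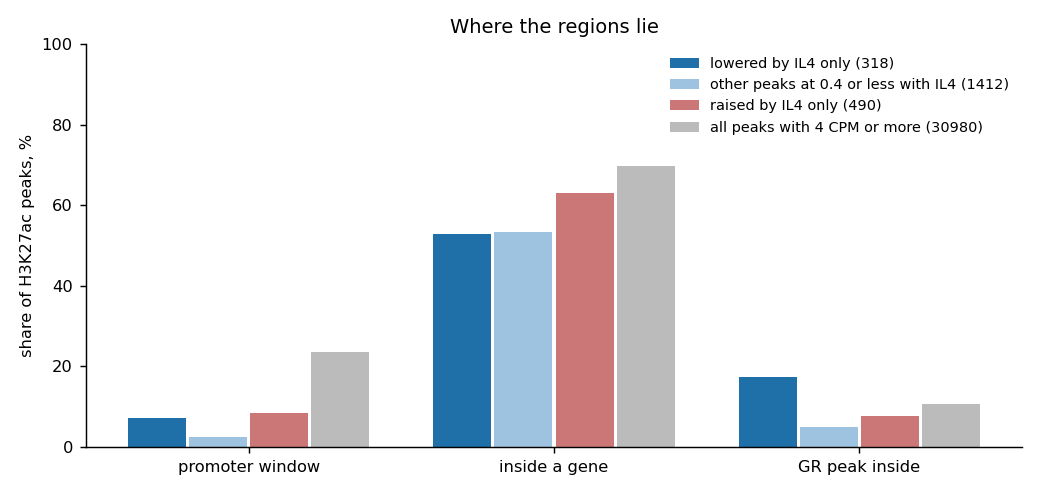
Share of H3K27ac peaks in percent (y axis) with a promoter window of a named gene, inside a gene, or with a GR peak (x axis), for the 318 regions and 3 other sets of peaks, with the number of peaks in brackets. The regions show 7.23% for promoters and 17.3% for GR peaks, against 23.5% and 10.7% of all peaks of at least 4 CPM.

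GR binding was not used to choose the regions. A GR peak overlapped 55 of the 318 by at least 1 bp (17.3%), against 10.7% of all peaks of at least 4 CPM, 7.55% of the mirror set and 5.03% of the 1412 other peaks at 0.4 or less with IL4. Longer peaks hold GR peaks more often. In regions up to 1500 bp the share was 3.37% against 3.73% of all such peaks, from 1500 to 3000 bp it was 17.1% against 8.15%, and above 3000 bp 33.8% against 23.9%. The 1412 other peaks were shorter and weaker (medians of 1686 bp and 12.1 CPM in vehicle, against 2103 bp and 19.6 CPM in the regions). The mirror set was longer and weaker (2652 bp and 8.76 CPM). Neither set was split by length, and these shares were not tested.

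The 55 regions held 70 GR peaks, and 61 of these passed the count filter, in a fit of all GR libraries with batch as a covariate and edgeR's quasi-likelihood test adjusted over 5183 peaks. With Cort 8 were higher and 4 lower, where 12.8% of all tested GR peaks were higher and 14.8% lower. With Dex 9 were higher and 1 lower, where 14.7% and 15.6% of all were. The shares of higher peaks in the regions were thus near the background, and those of lower peaks below it. With IL4 0 were called (0% of all), 4 had an unadjusted p under 0.05, as had 612 of all peaks, and DESeq2 called 0 of them and 4 of all (0.0772%). The median log2 difference was 0.29 with Cort, 0.17 with Dex and -0.15 with IL4, against 0.17, -0.12 and -0.10 over all tested GR peaks. Scaling by total count moved the Cort and Dex medians of all GR peaks to 0.96 and 0.86 and gave 22 higher and 0 lower with Cort and 25 and 0 with Dex in the regions, where 30.0% of all were higher and 0.463% lower with Cort and 37.7% and 0.482% with Dex. GR changes below are relative to TMM scaling for this reason.

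In the intergenic region 388 kb from Mmadhc, the GR peak (chr2:50690139-50690447) had 4.25, 14.5, 10.8 and 14.2 TMM-scaled CPM in vehicle (batch 1, 1, 2, 2), 45.9, 38.4, 32.2 and 39.4 with Cort, 40.5, 51.9, 35.7 and 38.6 with Dex, and 13, 17.4 and 6.02 with IL4 (batch 2). All steroid libraries were above all vehicle and IL4 libraries. The log2 change was 1.81 ± 0.38 with Cort (edgeR adjusted p = 0.00461) and 1.90 ± 0.38 with Dex (edgeR adjusted p = 0.00201), with Cort at 2.24 in batch 1 alone and 1.40 in batch 2 alone, and Dex at 2.33 and 1.53. In Sox5, a transcription factor gene, the GR peak (chr6:144690527-144690897) had 2.83, 11.1, 8.89 and 12.9 in vehicle, 25, 26.6, 18.1 and 36.6 with Cort, 28.8, 28.1, 31.0 and 36.2 with Dex, and 11.6, 3.34 and 11.3 with IL4. It rose by 1.57 ± 0.42 with Cort (edgeR adjusted p = 0.0143) and 1.79 ± 0.43 with Dex (edgeR adjusted p = 0.00538). The peak in Tasp1, a protease gene (chr2:139919755-139920123), rose by 1.16 ± 0.29 and 1.27 ± 0.29. The calls of these 3 peaks held with any 1 library left out. The H3K27ac of these regions had ratios of 0.359, 0.245 and 0.364 with IL4.

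At Siglece the GR peak (chr7:43664057-43664374) had 1.42, 5.57, 6.99 and 11.6 in vehicle, 18.1, 17.7, 23.2 and 10.7 with Cort, 16.1, 13.6, 13.1 and 16.3 with Dex and 6.84, 4.01 and 3.01 with IL4. One Cort library fell within the vehicle range. The rise was 1.45 ± 0.41 with Cort (edgeR adjusted p = 0.0185) and 1.21 ± 0.42 with Dex (edgeR adjusted p = 0.0385). Without vehicle replicate 2 the Cort call was lost (edgeR adjusted p = 0.053). The Dex call was lost on leaving out any 1 library other than vehicle replicate 4 and Dex replicate 3 (adjusted p up to 0.095). At Tlr2 the GR peak (chr3:83845259-83845589) rose by 1.14 ± 0.39 with Cort (edgeR adjusted p = 0.0415) and had 0.89 ± 0.39 with Dex (adjusted p = 0.0991, and 0.031 with the replicate number as a block in place of batch). Its Cort call held only without vehicle replicate 3 or Cort replicate 4 among the 8 fits with 1 library left out (adjusted p up to 0.136).

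Further higher calls lay near Tex30 (both steroids), in an intergenic region 734 kb from Zfp386 (both steroids), and in Trit1 and Cd14 (Dex, the Cd14 peak at chr18:36726783-36726960). Of these, only Trit1 and the intergenic peak with Dex held in each of 8 fits with 1 library left out. The Cort call of the intergenic peak was lost without Cort replicate 1 (adjusted p = 0.0516). At Tex30, vehicle replicates 1 and 2 and Cort replicates 2 and 4 each decided the Cort call (adjusted p up to 0.143) and vehicle replicate 2 the Dex call (0.0627). At Cd14, vehicle replicates 2 and 3 and Dex replicates 2 and 4 each decided the Dex call (adjusted p up to 0.106). With the replicate number as a block in place of batch, the Tex30 call with Cort was lost (adjusted p = 0.0611). In that fit this Cd14 peak passed as higher with Cort too (adjusted p = 0.0389).

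The single peak lower with both steroids was in Itga9 (chr9:118674950-118675047), with 86.4, 78.0, 113 and 96.9 in vehicle, 51.9, 31.0, 46.3 and 43.3 with Cort, 31.1, 40.7, 40.5 and 30.7 with Dex and 138, 209 and 213 with IL4. It fell by 1.11 ± 0.25 with Cort (edgeR adjusted p = 0.00586) and by 1.38 ± 0.25 with Dex (edgeR adjusted p = 0.00119). Its IL4 libraries were all above its vehicle libraries, but the difference of 0.92 did not pass (edgeR adjusted p = 0.41). Both steroid calls held with any 1 library left out, but with total-count scaling the changes were -0.34 and -0.37 and neither passed.

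Lower calls with Cort alone were at Serp1, Cd14 and Eloc, and at these the batches differed widely. The GR peak of the Serp1 region called with Cort (chr3:58523549-58523798) had 22.7 and 71.3 in vehicle of batch 1 and 6.35 and 6.46 in batch 2, with 16.7 and 29.0, then 3.39 and 1.69, with Cort. IL4 libraries, all of batch 2, had 2.05, 2.67 and 3.76, below the vehicle libraries of that batch, and the difference adjusted for batch was -0.94 ± 0.52 and did not pass (edgeR adjusted p = 0.501). The Cort change of -1.16 ± 0.40 (edgeR adjusted p = 0.0431) was lost on leaving out any 1 library other than vehicle replicate 1 and Cort replicate 4 (adjusted p up to 0.231), and with the replicate number as a block in place of batch (adjusted p = 0.0608). The Cd14 call (chr18:36725436-36725620, log2 -2.01, edgeR adjusted p = 0.016) was at another GR peak of the region that held the higher Dex call. It was lost without Cort replicate 1 (adjusted p = 0.0599), and the Eloc call without vehicle replicate 4 or Cort replicate 1 (adjusted p up to 0.0811). None of these 3 peaks was tested in batch 2 alone, where too few reads remained.

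Of the 22 calls at GR peaks in the regions, all kept their direction in batch 1 alone, where 17 passed, and the 19 that could be fitted in batch 2 alone kept it too, where 0 passed. In batch 2 alone 0 of all 4714 tested GR peaks were called for either steroid. The regions of Fpr1 and Cx3cr1 held GR peaks without a call. The most read of them, at Cx3cr1 (chr9:120058708-120059069), had group means of 14.5 in vehicle, 17.5 with Cort, 17.5 with Dex and 20.5 with IL4.

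**Figure D5:**
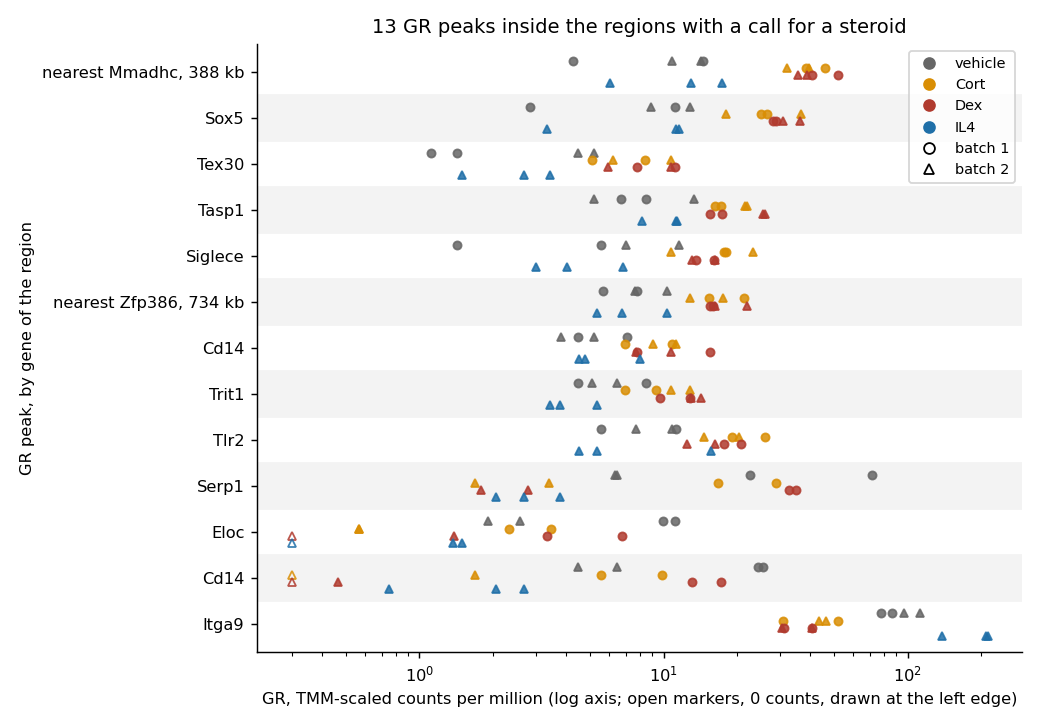
GR in TMM-scaled CPM (x axis, log scale) at 13 GR peaks inside the regions that were called for a steroid (y axis, by gene of the region), 1 marker per library, colour for treatment and shape for batch. Steroid markers lie right of all vehicle markers in the rows of Mmadhc, Sox5 and Tasp1, and left of them at Itga9. At Tex30 and Siglece a Cort marker falls within the vehicle range. At Serp1 batch 1 lies right of batch 2 in the groups that have both.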

How the data were processed

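The deposited tables hold raw read counts per peak, over 1 peak set per assay, and the submitters' processing notes name mm10 and the tools featureCounts, MACS2, Bowtie2, SAMtools and fastp, without versions, as those the authors used. How peaks were merged or duplicates treated is not given in the sources used here. Columns headed C were taken as vehicle by elimination. The input library was not analysed here.

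Counts were divided by the library's total in peaks for CPM. Differences came from edgeR 4.0.16 in R 4.3.3 (filterByExpr, TMM, quasi-likelihood F test, all libraries of an assay, batch as covariate for GR), with Benjamini-Hochberg adjustment over all tested peaks and calls at 0.05. TMM-scaled values are relative to the other peaks. Standard errors were derived from the log2 fold change and its F statistic. Simulated counts with known changes were used to check the fits. DESeq2 1.42.0 and the alternatives of the closing section were run beside it.

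Peaks were assigned to the nearest named protein-coding RefSeq gene by span, within 50 kb (19939 genes, GRCm38.p6). A region of several genes carries the nearest name, which does not show that it acts on that gene. Named regions are those with the 10 lowest IL4 ratios, the 10 highest vehicle levels, up to 3 per gene list, 5 by GR reads and the genes with most regions. Overlaps and shares were computed in Python with pandas. No genome was used, so sequences are promoter windows only.

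The regions, lists and rules were chosen with earlier results of these data known. Correlations of deviations from group means were 0.268 to 0.678 for 18 same-numbered pairs of H3K27ac libraries and -0.449 to 0.0406 for 36 others, so the numbers pair them. For GR they were 0.188 to 0.703 for 12 same-numbered pairs, and 0.326 to 0.738 for 12 pairs of other numbers in the same batch. The GR block was not run for IL4. One item among the GR calls is not reported here by name and is counted in the totals.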

Additional observations from a re-analysis of the deposited data

Results flagged for a closer look

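At the intergenic GR peak 734 kb from Zfp386 (chr12:115312019-115312309), 1 Dex library, replicate 3, stood at 22.0 TMM-scaled CPM while the other Dex libraries had 15.5, 16.0 and 16.3, a gap that is large for a group of 4. It was the single such case among 42 groups of 4 libraries at the GR peaks called for a steroid, and chance gives about 1 in 20. All 4 Dex libraries lay above all vehicle libraries there (5.66, 7.80, 7.62 and 10.3).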

How the results depend on the processing

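The 312 regions called lower with IL4 were 311 to 318 in the other fits of all libraries or of the 2 groups alone, and 277 to 309 with 1 library left out, the fewest without IL4 replicate 3. The set itself numbered 225 to 426 with 1 library left out, 249 with a pseudocount of 1, 410 with 0 and 297 for peaks with filtered TRUE. With the replicate block, calls over all peaks rose from 16538 to 26057 with IL4, 929 to 7531 with Cort and 3138 to 12131 with Dex, and those in the regions from 0 to 1 with Cort and 0 to 10 with Dex. All-peak calls were also 613 (Cort) and 1979 (Dex) when a log2 fold change of 1 or more in size was also asked for, 385 and 1976 in fits of the 2 groups compared, and 1912 for Cort in DESeq2. With 1 library left out they were 328 to 1073 for Cort, 1185 to 4168 for Dex and 11294 to 14712 for IL4. Higher peaks were 75.8% of Cort calls and 55.3% of Dex calls, against 63.2% and 45.0% with total-count scaling and 51.2% and 48.9% with the replicate block. For Cort they were 63.7% in DESeq2, 89.6% in the fit of the 2 groups and 67.3% to 91.5% with 1 library left out, the most without vehicle replicate 3, and for Dex 53.8% to 68.8%. 

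For GR peaks in the regions, the 12 Cort calls became 22 with total-count scaling, 7 without the count filter, 7 without the batch term, 0 in batch 2 alone and 6 to 14 with 1 library left out. The 10 Dex calls became 25 with total-count scaling, 0 in batch 2 alone and 6 to 12 with 1 library left out. Without vehicle replicate 2 both stood at 6. Over all GR peaks, 1431 Cort calls became 753 without the count filter, 0 in batch 2 alone and 1011 to 1763 with 1 library left out, 1572 Dex calls became 0 in batch 2 alone and 1270 to 1592, and the 0 IL4 calls became 4 in DESeq2. With the replicate number as a block in place of batch, 19 of 21 calls that could be fitted still passed. Batch 1 alone was chosen after the data were seen. The cause of these differences was not tested. A gene lay within 10 kb of 66.4% of the regions and within 100 kb of 92.8%, and a GR peak within 1 kb of 17.9%. GR depth limits precision, as 39 of the 70 GR peaks in the regions had a mean under 10 counts per library.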
